A study of Mus musculus with 2 samples.

Results

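The cells described here are a small group of lung macrophages that carried RNA of both the complement component C1q and the chemokine Cxcl9. They were chosen by raw counts of unique molecular identifiers (UMIs, each standing for 1 captured RNA molecule) per cell barcode, and 137 of the 14179 barcodes kept (500 or more genes, no more than 10% of UMIs mitochondrial) met the rule. The rule asked for at least 20 UMIs of C1qa, C1qb and C1qc together and at least 2 of Cxcl9. It allowed at most 1 UMI of Arg1, fewer than 5 of Mrc1, Folr2 and Pf4 together, at most 1 of Inhba and Thbs1, at most 1 of the Cd3 genes Cd3d, Cd3e and Cd3g, and fewer than 3 of the cell cycle genes Mki67, Top2a and Birc5. Every gene of the rule is therefore a choice and not a finding.

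C1q is the recognition subunit of the classical complement pathway and is made by tissue macrophages, where it marks cells that also take up dying cells. Interferon gamma, released mainly by T cells and natural killer cells, acts through its receptor and switches on guanylate-binding proteins (Gbp genes), the antigen presentation machinery and the chemokines Cxcl9, Cxcl10 and Cxcl11. These chemokines attract activated T cells through the receptor CXCR3. Type I interferons act through a receptor of their own and drive an overlapping set that includes the Ifit, Oas and Mx antiviral genes.

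The study sorted live (DAPI-negative) CD45+ leukocytes from digested mouse lungs 7 weeks after a first dose of urethane, a lung carcinogen, and profiled them by 10x single-cell RNA sequencing. One sample was wild type (WT) and 1 was mutant for the ubiquitin ligases Siah1a and Siah2 (labelled Siah1a/2 KO), and both came from urethane-treated mice, with no untreated lung. Strain, sex, age, the number of animals and the way the alleles were made were not given in the labels. Cell barcodes ended in 1 or 2, and no label tied an ending to a genotype, so the endings are called library 1 and library 2 and nothing below compares genotypes. With 1 library of each kind there is no test between conditions: the 95% intervals are exact, cover counting error only, and say nothing of animals.

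Library 1 held 8522 barcodes and 86227008 UMIs and library 2 held 6479 barcodes and 59459790 UMIs, of which 8066 and 6113 barcodes were kept, with medians of 8661 and 7875 UMIs per kept cell. The chosen cells made up 85 cells of library 1, or 1.05% of its kept cells (exact 95% interval 0.843 to 1.30%), and 52 cells of library 2, or 0.851% (0.636 to 1.11%). The 2 intervals overlap. The libraries shared 11 barcodes, none of them (0) among the chosen cells. The chosen cells held 1799 to 26205 UMIs in library 1 (median 11582) and 2105 to 34420 in library 2 (median 12501), above the medians of all kept cells. Doublets were neither called nor removed.

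The steps of the rule showed where cells were lost. C1q alone kept 991 cells of library 1 and 580 of library 2, and the Cxcl9 clause cut these to 331 and 261. The clause on Mrc1, Folr2 and Pf4, genes of resident interstitial macrophages, had the next largest effect and took the numbers from 314 and 204 to 176 and 125. The Cd3 clause took them from 134 and 77 to 91 and 53, and the cell cycle clause left 85 and 52. Among C1q cells that met every clause other than that on Cxcl9, the chosen cells were 85 of 248 in library 1, or 34.3% (exact 95% interval 28.4 to 40.5%), and 52 of 108 in library 2, or 48.1% (38.4 to 58.0%). The other 163 and 56 had 0 or 1 Cxcl9 UMI and are called the Cxcl9-low C1q cells.

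Cxcl9, Cxcl10 and Cxcl11 lie side by side on chromosome 5 of mm10, all on the minus strand: Cxcl9 at chr5:92321347-92328079, Cxcl10 at chr5:92346638-92348889 and Cxcl11 at chr5:92359544-92365485 (GENCODE M21). The annotation types Cxcl11 as a polymorphic pseudogene, because some mouse strains carry a broken reading frame, so its RNA says nothing of its protein. Cfb, which encodes factor B of the alternative complement pathway, lies at chr17:34856374-34862518 on the minus strand, and C1qa at chr4:136895917-136898803 on the minus strand. Promoter windows of 4 genes are printed because the results below turn on them: Cxcl9 chose the cells, Cxcl10 is its neighbour, and Serpina3g and Gbp2b were higher in the chosen cells than in Cxcl9-low C1q cells. Each is the 250 bases before the RefSeq start in build GRCm38.p6, 5′ to 3′ on the gene's strand: Cxcl9 chr5:92328080-92328329 (minus), Cxcl10 chr5:92348890-92349139 (minus), Serpina3g chr12:104235897-104236146 (plus) and Gbp2b chr3:142594597-142594846 (plus). Capitals mark a match, on either strand, to the gamma-activated site (GAS, TTCNNNGAA) or to the interferon-stimulated response element (ISRE, GAAANNGAAA).
Cxcl9: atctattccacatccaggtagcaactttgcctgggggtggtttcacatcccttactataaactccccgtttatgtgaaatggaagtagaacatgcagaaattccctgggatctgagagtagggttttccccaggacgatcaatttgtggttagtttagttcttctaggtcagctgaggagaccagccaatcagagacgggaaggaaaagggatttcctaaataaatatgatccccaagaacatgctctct
Cxcl10: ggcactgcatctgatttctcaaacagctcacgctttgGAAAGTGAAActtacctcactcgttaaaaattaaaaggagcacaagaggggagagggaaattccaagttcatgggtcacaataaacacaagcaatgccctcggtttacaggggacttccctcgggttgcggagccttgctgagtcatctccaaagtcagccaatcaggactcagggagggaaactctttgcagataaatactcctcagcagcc
Serpina3g: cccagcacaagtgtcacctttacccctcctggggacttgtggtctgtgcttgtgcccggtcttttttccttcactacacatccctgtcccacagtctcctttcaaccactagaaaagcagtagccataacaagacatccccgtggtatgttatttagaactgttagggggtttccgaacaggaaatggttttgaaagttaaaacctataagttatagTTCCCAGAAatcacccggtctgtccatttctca
Gbp2b: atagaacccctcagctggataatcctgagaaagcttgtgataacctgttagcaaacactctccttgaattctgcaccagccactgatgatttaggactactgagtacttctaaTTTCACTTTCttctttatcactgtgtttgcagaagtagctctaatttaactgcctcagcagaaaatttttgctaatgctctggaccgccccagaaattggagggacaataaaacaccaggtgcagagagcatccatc

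The Cxcl10 window held an ISRE match from base 38, the Gbp2b window an ISRE match from base 114 and the Serpina3g window a GAS match from base 218. The Cxcl9 window held neither set of letters, which says only that these letters are not in these 250 bases. Over all 32851 promoter windows of the same length, 7.02% held a GAS match and 2.98% an ISRE match, counted separately where they overlap. RefSeq entries for Cxcl11 and Cfb were not in the table used here.

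Cxcl9 varied widely among the cells chosen for it. The lowest, median and highest counts per cell were 2, 14 and 271 UMIs in library 1 and 2, 20 and 291 in library 2, and 38 and 27 cells held 20 or more. The 10 cells with the most Cxcl9 carried 46.1% of its UMIs in library 1 and 61.0% in library 2. The C1q genes together had a lowest, median and highest count of 20, 116 and 822 UMIs in library 1 and 21, 111.5 and 433 in library 2. Summed over cells and scaled to the total UMIs (counts per 1e6, CPM), Cxcl9 stood at 3218 in library 1 and 3232 in library 2, and C1qa at 4877 and 4190 CPM.

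**Figure D1:**
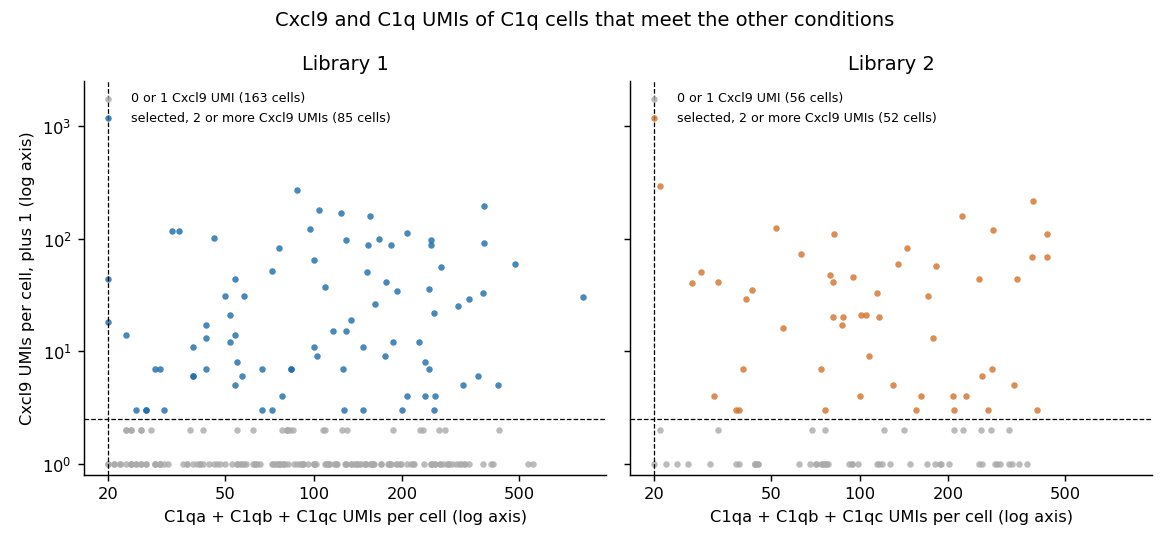
Cxcl9 UMIs per cell plus 1 (vertical, log axis) against C1qa, C1qb and C1qc UMIs per cell (horizontal, log axis) for C1q cells that met every clause other than that on Cxcl9, 1 point per cell and 1 panel per library, with dashed lines at the rule's limits. The chosen cells (85 in blue, 52 in orange) spread from 2 Cxcl9 UMIs to 271 and 291 at low and high C1q alike, and the grey cells (163 and 56) hold 0 or 1.

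T cells, which should lack Cxcl9, gave the background. Of 3573 T cells in library 1 and 2927 in library 2 (median 7630 and 7012 UMIs), 8.0% and 6.80% held a Cxcl9 UMI, and 1.9% and 2.32% held the 2 UMIs that the rule asks for. Cells just inside the limit (exactly 2 Cxcl9 UMIs) numbered 10 and 7, and those just outside it (1 UMI) 27 and 11. Gbp2 was not higher just inside the limit, at 312 and 125 CPM in the cells with 2 UMIs and 1444 and 610 CPM in those with 1. Over all chosen cells it stood at 1031 and 843 CPM, against 453 and 398 CPM in all Cxcl9-low C1q cells. Below the C1q limit, 161 and 95 cells met every other clause with fewer than 20 C1q UMIs, so more cells with Cxcl9 lay outside the limit than inside it. Few of these lay near the limit: 5 and 2 held 15 to 19 C1q UMIs. C1qa stood at 57.2 and 29.0 CPM over all of them, against 43.0 and 14.9 CPM in T cells.

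Macrophage markers were present throughout. All 13 of 13 listed macrophage genes were detected in both libraries, but C1qa, C1qb and C1qc among them were required by the rule. Csf1r, the receptor for macrophage colony-stimulating factor, was found in 96.5% and 96.2% of cells at 421 and 404 CPM, and the high-affinity Fc receptor Fcgr1 stood at 843 and 848 CPM. Adgre1, which encodes F4/80, stood at 133 and 137 CPM and the engulfment receptor Mertk at 10.7 and 10.3 CPM. Genes of classical monocytes were present in the same cells: Ccr2, the receptor that draws monocytes into tissue, stood at 637 and 734 CPM. The 10 listed classical monocyte genes summed to 4223 and 5549 CPM. They summed to 4571 and 5235 CPM in Cxcl9-low C1q cells and 4779 and 5426 in T cells, so the sum did not set the chosen cells apart from these. In the Mrc1 Folr2 Pf4 cells described below the sum was 1560 and 1437 CPM. Of 14 alveolar macrophage markers, Marco, Car4, Ear1, Fabp1, Krt79, Krt19, Cidec, Plet1 and Atp6v0d2 were at 0 in both libraries, while Chil3, which monocytes also make, stood at 47.5 and 117 CPM and Pparg at 10.7 and 7.34 CPM. Of 10 resident interstitial macrophage markers Lyve1, Cd163 and Timd4 were at 0, Timd4 also in the Mrc1 Folr2 Pf4 cells described below, and F13a1 stood at 18.4 and 27.9 CPM.

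Markers of other lineages were carried by some of the cells. The natural killer (NK) cell list summed to 593 and 467 CPM, against 342 and 190 in the Cxcl9-low C1q cells and 3537 and 4282 in T cells, and 9 and 4 of the chosen cells held 10 or more UMIs of it. The neutrophil list summed to 59.1 and 458 CPM with Ly6g, Camp and Ngp at 0, and 1 and 2 cells held 10 or more of its UMIs. Such cells for the B cell list numbered 5 and 0, for migratory dendritic cells 2 and 2, for T cells 2 and 1 and for alveolar macrophages 2 and 2. In all, 19 of 85 and 10 of 52 cells held 10 or more UMIs of at least 1 of these lists, counting 1 and 1 for resident macrophages. That total left out 4 other lists. Cells with 10 or more UMIs numbered 35 and 29 for type 1 and 9 and 8 for type 2 conventional dendritic cells. They numbered 37 and 32 for plasmacytoid dendritic cells and 44 and 26 for inflammatory monocytes. The later runs without other lineages' cells did not use these 4 lists either.

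Mitochondrial and ribosomal protein genes aside, Cd74, the invariant chain of MHC class II, had the highest mean level, 23293 and 23317 CPM. The cytoskeletal genes Actb (17555 and 16388 CPM) and Tmsb4x (17372 and 15258) and the ferritin gene Fth1 (12999 and 13837) followed, then Malat1, CT010467.1 and the class II beta chain H2-Ab1, the last at 9268 and 10054 CPM. The lipid carrier Apoe stood at 4002 and 4275 CPM and interleukin-1 beta (Il1b) at 2294 and 2422 CPM. Among the other cytokines Tnf stood at 26.2 and 30.8 CPM, while Il10 had 1 UMI in each library and Il12a and Il23a had 0. Ido1, a gene of the interferon gamma response list, also had 0. The inducible nitric oxide synthase Nos2 was low, at 18.4 and 7.34 CPM. The checkpoint ligand Cd274 (PD-L1) stood at 114 and 151 CPM and the costimulatory genes Cd86 and Cd40 at 209 and 195 CPM and at 139 and 159 CPM.

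Cxcl10 and Cxcl11 did not accompany Cxcl9 in every cell. Cxcl10 stood at 1779 and 1654 CPM, was at 0 in 38 of 85 and 22 of 52 cells and reached 257 and 179 UMIs in 1 cell. Cxcl11 stood at 204 and 206 CPM, was at 0 in 53 and 34 cells and reached 29 UMIs in both libraries. Both were detected together in 30 and 15 cells, Cxcl10 without Cxcl11 in 17 and 15, Cxcl11 without Cxcl10 in 2 and 3, and neither in 36 and 19. Cells with 20 or more Cxcl9 UMIs held Cxcl11 in 20 of 38 and 13 of 27 cases, and those below held it in 12 of 47 and 5 of 25. These shares move with the UMIs a cell holds.

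Detection was therefore also read after each cell was thinned to 5000 UMIs, which left out 3 and 1 of the chosen cells. Cxcl11 was then found in 29.3% and 23.5% of them (37.6% and 34.6% unthinned), against 0.75% and 1.25% of thinned T cells. Cfb was found in 37.8% and 64.7% (74.1% and 75% unthinned), against 2.00% and 1.00% of thinned T cells. Cxcl10 was found in 48.8% and 47.1% (55.3% and 57.7% unthinned), but also in 23% and 16.8% of thinned T cells, so its background share was larger than that of the other 2 genes.

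Genes that followed Cxcl9 from cell to cell were ranked by Spearman's rho over 133 thinned cells and 3027 genes, as a description without a test, since the cells share their library and were chosen on Cxcl9. The median over all genes was 0.00. Highest were the guanylate-binding protein Gbp2 (rho 0.50), the mitochondrial superoxide dismutase Sod2 (0.47), uridine phosphorylase Upp1 (0.43) and Gbp5 (0.42). The nucleotide phosphohydrolase Samhd1 (0.41), Serpina3g (0.40), Acod1, which makes itaconate (0.38), and the immunoproteasome subunit Psmb10 (0.38) came next. The interferon-induced transcription factor Irf1 reached 0.32, and Sdc4 (0.37), Ehd1 (0.34) and Txnrd1 (0.33) stood between.

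Against Cxcl9-low C1q cells of the same library, which met every other clause, the chosen cells differed in few genes. Of 3557 genes with at least 50 UMIs over both sets and outside the rule, 16 (0.45%) were at least 2-fold higher in both libraries with intervals that excluded 0, and 4 (0.112%) were lower. The median log2 ratio over all genes was -0.03 in library 1 and -0.04 in library 2. Since Cxcl9 divided the cells, these ratios describe what went with it and are not a test of a cell type.

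**Figure D2:**
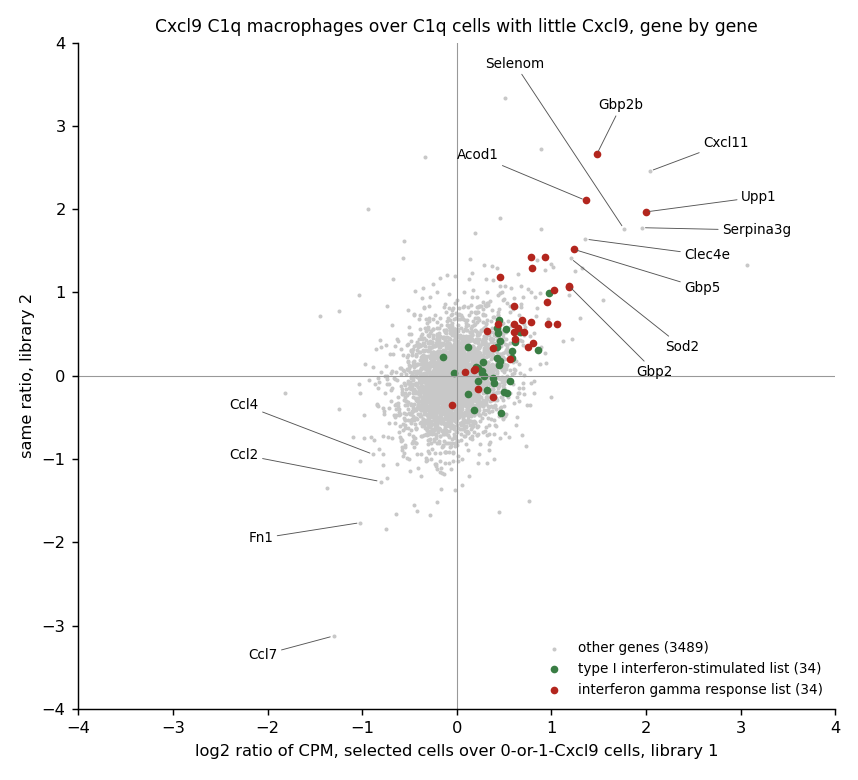
Log2 ratio of the summed CPM of the chosen cells over Cxcl9-low C1q cells, library 1 on the horizontal and library 2 on the vertical axis, 1 point per gene (3557 genes, 2 of them beyond the axes), with the interferon gamma response list in red (34 genes) and the type I interferon-stimulated list in green (34 genes). Cxcl11, Upp1, Serpina3g and Selenom lie above 1.7 in both libraries, and the red points reach farther from 0 than the green ones.

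Cxcl11 stood at 204 CPM in the chosen cells of library 1 and 206 in library 2, against 49.5 and 36.7 CPM in Cxcl9-low C1q cells (log2 ratio 2.04, interval 1.68 to 2.42, and 2.46, 1.82 to 3.22). Upp1, which degrades uridine, stood at 118 and 255 CPM against 29.5 and 64.7 (log2 ratio 2.00, 1.53 to 2.50, and 1.97, 1.46 to 2.54). Serpina3g, a serine protease inhibitor, stood at 184 and 182 CPM against 47.3 and 52.4 (1.96 and 1.78). The chosen cells were higher than Cxcl9-low C1q cells in both libraries for all 3 genes. A further 29 and 30 cells met every clause but held 2 or more UMIs of Inhba and Thbs1. These held Cxcl11 at 266 and 135 CPM, Upp1 at 129 and 333, Serpina3g at 166 and 153 and Gbp2 at 1395 and 1024. High levels of these genes were therefore not particular to the chosen cells. Serpina3g was common in T cells too, in 57.0% and 54.3% of thinned T cells against 36.6% and 41.2% of thinned chosen cells, and the part of T cell RNA in its ratio was not tested.

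Guanylate-binding proteins, large GTPases that attack intracellular microbes, were among the higher genes. Gbp2 stood at 1031 and 843 CPM against 453 and 398 (log2 ratio 1.18, 1.05 to 1.32, and 1.08, 0.86 to 1.31). Gbp5 stood at 186 and 182 CPM against 79.0 and 62.9 (1.23 and 1.52), and Gbp2b at 103 and 126 CPM against 36.7 and 19.2 (1.48 and 2.66). Acod1, which makes itaconate (105 and 184 CPM against 40.6 and 41.9), the mitochondrial superoxide dismutase Sod2 (334 and 508 against 145 and 190) and the C-type lectin receptor Clec4e (171 and 198 against 66.7 and 62.9) were also called, Clec4e not after thinning to 5000 UMIs. For this and the later ratios after thinning, the rule was applied anew to the thinned counts, which chose 97 and 56 cells. Both the depth and the cells of each set thus changed. Of 13 haem, iron and antioxidant genes 1 was called higher, and of 8 Toll-like receptor genes 0, beside 0.45% of all genes. The other called genes were Selenom, Sectm1a, Mmp25, Calhm6, Batf2, Cnn3 and Ly6i.

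The 4 lower genes were Ccl7, Fn1, Ssh2 and Emp1. Ccl7, a monocyte-attracting chemokine, stood at 158 and 57.3 CPM in the chosen cells and 390 and 505 CPM in Cxcl9-low C1q cells (log2 ratio -1.30 and -3.12). Fibronectin (Fn1) stood at 45.5 and 29.4 CPM against 92.9 and 101 (-1.02 and -1.76). Ccl2, which draws monocytes through CCR2, stood at 386 and 297 CPM against 676 and 716 (-0.81 and -1.27) and did not reach the 2-fold limit in library 1. After thinning to 5000 UMIs, with the cells chosen anew, 1 of the 4 was called, Ssh2. In cells with no Cd3 UMI the Fn1 ratio in library 1 was 0.67. Of the 16 higher genes 11 were called after thinning and 9 in cells with no Cd3 UMI.

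By the gene lists, 7 of 34 measured interferon gamma response genes were called higher than in Cxcl9-low C1q cells and 0 lower. Of all genes 0.45% were called higher and 0.112% lower. The 7 were Gbp2, Gbp2b, Gbp5, Upp1, Calhm6, Batf2 and Acod1. The lists were written with earlier results of these data known, so the counts are a description and not a test. In cells with no Cd3 UMI 4 genes of the list were called higher, and after thinning 8. The list had a median log2 ratio of 0.70 and 0.62, against -0.03 and -0.04 over all genes. Of 34 type I interferon-stimulated genes 0 were called, with medians of 0.43 and 0.15, and of 10 MHC class II genes 0 were called, with medians of 0.08 and 0.26. Over single cells, the summed interferon gamma response list had a median of 8662 and 10004 CPM in the chosen cells, 5108 and 6369 CPM in Cxcl9-low C1q cells and 4343 and 4881 CPM in C1q cells with 5 or more UMIs of Mrc1, Folr2 and Pf4. Leaving out cells with 10 or more UMIs of another lineage (18 and 9 chosen cells, 11 and 0 Cxcl9-low cells) left 9 genes higher, 8 of them among the 16, and 3 interferon gamma response genes called, with list medians of 0.62 and 0.56. The higher calls lost were Gbp2 (1.12 and 0.94), Gbp5 (0.91 and 1.25), Sod2 (1.22 and 0.98), Acod1 (0.95 and 2.14), Batf2, Cnn3, Mmp25 and Sectm1a, and the lower call lost was Ssh2 (-0.92 and -1.02). Cxcl11 stood at 1.33 and 1.79 without those cells.

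**Figure D3:**
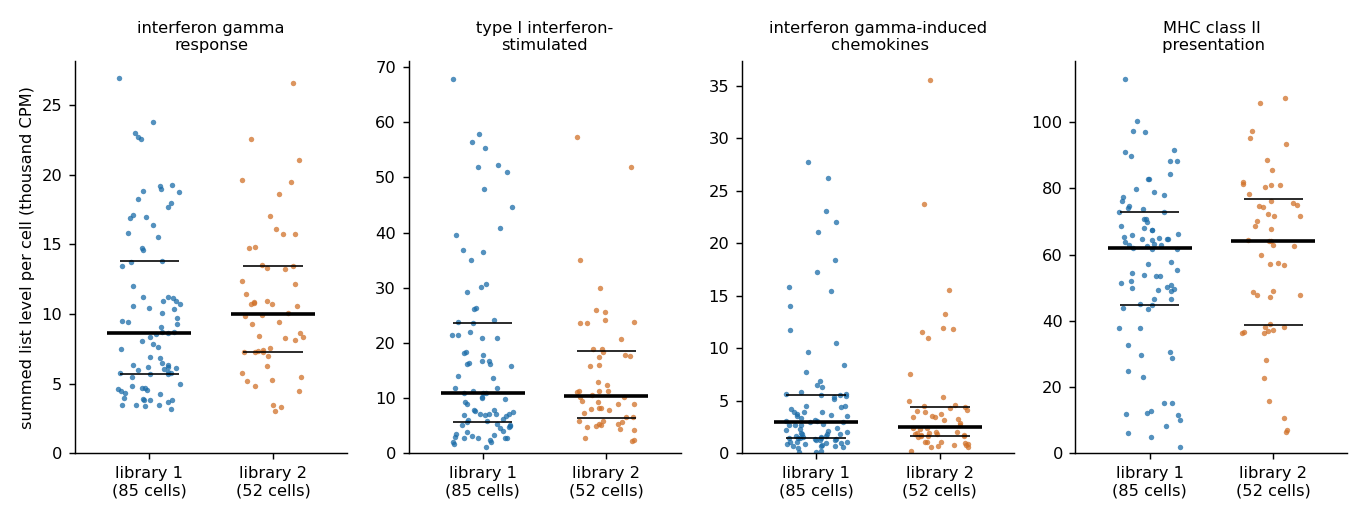
Summed level per cell (CPM, axis in units of 1000) of 4 gene lists in the chosen cells, 1 point per cell, library 1 in blue (85 cells) and library 2 in orange (52 cells), with a thick line at the median and thin lines at the quartiles. Cxcl9, which the rule used, was left out of the sum of the interferon gamma-induced chemokine list. Medians of the type I list are 10888 and 10455 CPM, and the cells above its upper quartile reach higher in library 1.

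RefSeq promoters were found for 12 of the 16 genes higher than in Cxcl9-low C1q cells, of which 3 held a GAS match, 4 an ISRE match and 6 at least 1 of the 2, against 3009 of 27025 genes in all with at least 1. Gbp2b and Serpina3g, printed above, are examples with a match, and Gbp5 held both motifs. The windows of Upp1, Selenom, Acod1, Clec4e and Mmp25 held neither. These are letter matches in a short window and were not tested.

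Against C1q cells with 5 or more UMIs of Mrc1, Folr2 and Pf4 that met the other clauses, at any level of Cxcl9 (132 and 50 cells, median 14220 and 15452 UMIs), the chosen cells differed more widely. Of 3917 genes measured, 60 (1.53%) were called higher in both libraries and 46 (1.17%) lower, with medians over all genes of -0.02 and -0.03. Mrc1, Folr2 and Pf4 divided these sets, so the ratios again describe the choice. After thinning, 46 genes were higher, 25 of them among the 60, and 24 lower, 19 of them among the 46.

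Of the 10 listed classical monocyte genes 6 had enough UMIs: Plac8, Ly6c2 and Chil3 were called higher, F13a1 was called lower (18.4 and 27.9 CPM against 75.4 and 122), and Ccr2 (log2 ratio 0.68 and 0.56) and S100a4 (0.10 and 0.89) were not called. Of all genes 1.53% were called higher and 1.17% lower. Chil3 held 76.3% of its library 2 UMIs in 1 cell, and after thinning to 5000 UMIs neither Chil3 nor F13a1 was called. Plac8 stood at 1746 and 2076 CPM against 202 and 136 (log2 ratio 3.11, 2.95 to 3.27, and 3.93, 3.65 to 4.24), and the surface antigen Ly6c2 at 1029 and 1651 CPM against 161 and 182 (2.67, 2.49 to 2.86, and 3.18, 2.92 to 3.45). T cells, in which both are also found, held Plac8 at 1189 and 1198 CPM and Ly6c2 at 1617 and 2106 CPM, and the part of T cell RNA in these ratios was not tested. Other higher genes were Ass1, which makes argininosuccinate for arginine recycling (311 and 410 CPM against 62.5 and 41.2), the interleukin-1 decoy receptor Il1r2 (122 and 141 against 26.3 and 17.3) and the interferon-induced Ifi205 (474 and 490 against 92.4 and 122). Il1r2 was not called after thinning. Cxcl9-low C1q cells held Plac8 at 1398 and 1415 CPM, Ly6c2 at 1361 and 1915, Ass1 at 247 and 224, Il1r2 at 204 and 142 and Ifi205 at 240 and 246. None of these genes was called between the chosen cells and Cxcl9-low C1q cells. Il1b stood at 2294 and 2422 CPM against 679 and 448 (1.76 and 2.43).

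The lower genes included the receptor Fcrls, an adhesion molecule, a scavenger receptor and 3 chemokines. Fcrls had 1 and 2 UMIs in the chosen cells, 0.97 and 2.94 CPM, against 207 and 255 CPM (log2 ratio -7.16, interval -13.05 to -5.25 in library 1, and -6.12, interval -9.50 to -4.57 in library 2). The adhesion molecule Vcam1 stood at 21.3 and 23.5 CPM against 147 and 218, and the scavenger receptor Stab1 at 25.2 and 14.7 against 168 and 201. Of the chemokines, which attract monocytes, Ccl8 stood at 78.5 and 29.4 CPM against 417 and 1470, Ccl12 at 424 and 173 against 1243 and 1042, and Ccl7 at 158 and 57.3 against 1164 and 1228. Of 17 lipid-associated macrophage genes 4 were called lower and 0 higher (medians -0.55 and -1.32), beside 1.17% and 1.53% of all genes. Among them, Apoe stood at 4002 and 4275 CPM against 12471 and 12262, and the lipid receptor Trem2 at 160 and 175 against 515 and 625.

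Against the Mrc1 Folr2 Pf4 cells both interferon lists had called genes, where 1.53% of all genes were called higher and 1.17% lower. Of 34 interferon gamma response genes 6 were called higher and 0 lower (medians 0.85 and 0.73), and of 34 type I interferon-stimulated genes likewise 6 and 0 (1.23 and 0.63). The 9 MHC class II genes had medians of 0.85 and 0.88, and 0 of them passed the 2-fold rule, with H2-Ab1 at 9268 and 10054 CPM against 4352 and 5164 (1.09 and 0.96). Summed per cell, class II had a median of 62106 and 64141 CPM in the chosen cells, 50096 and 49232 in Cxcl9-low C1q cells and 21739 and 32470 in Mrc1 Folr2 Pf4 cells.

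Between the libraries, Cxcl9, Cxcl10 and Cxcl11 stood close together, and Cfb and C1qa less so. On the log2 scale, library 2 over library 1 gave 0.01 for Cxcl9, which the rule used, 0.01 for Cxcl11 (-0.31 to 0.32) and -0.10 for Cxcl10 (-0.21 to 0.00). For C1qa, also in the rule, the ratio was -0.22 (-0.29 to -0.15). Cfb had 168 and 255 CPM in the 2 libraries (log2 ratio 0.61, interval 0.30 to 0.92). The same ratio for Cfb was 0.79 in Cxcl9-low C1q cells, 1.09 in Mrc1 Folr2 Pf4 cells and 0.60 in T cells, all above 0. Cfb was not called higher in the chosen cells than in Cxcl9-low C1q cells (102 and 176 CPM) or Mrc1 Folr2 Pf4 cells (93.5 and 199 CPM).

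Over 4323 genes with at least 50 UMIs in the chosen cells, 171 (3.96%) were at least 1.5-fold higher in library 2 and 163 (3.77%) lower with intervals that excluded 0, with a median of 0.02. These counts compare 2 libraries, in which genotype, animal and handling cannot be told apart. Without the cell holding the most UMIs of each gene in each library, 120 genes were called higher and 156 lower.

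The Siah genes themselves were near the limit of detection in these cells. Siah1a had 1 UMI in library 1 and 7 in library 2, or 0.97 and 10.3 CPM (log2 ratio 2.92, 0.45 to 8.90), and Siah2 had 7 and 20 UMIs (2.05, 0.81 to 3.60). Siah1b had 1 and 1. For T cells, Siah1a gave 0.21 (0.00 to 0.42) and Siah2 gave 0.33 (0.18 to 0.48). C1q cells with 5 or more UMIs of Mrc1, Folr2 and Pf4 held 0 and 7 UMIs of Siah1a and 8 and 23 of Siah2. A 3' count does not read whether an allele is deleted, and no genotype was taken from these values.

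Type I interferon-stimulated genes included many lower in library 2. Of 36 measured in the chosen cells 12 were called lower and 1 higher (Ifi206), beside 3.77% and 3.96% of all genes. The list had a median log2 ratio of -0.37, against 0.02 over all genes. The ubiquitin-like modifier Isg15 had 2746 and 1781 CPM (log2 ratio -0.62, -0.72 to -0.53), the antiviral Ifit3 715 and 395 (-0.85, -1.06 to -0.65), and Ifi44 95.9 and 38.2 (-1.31, -2.01 to -0.69). Ifit1, Ifit2, Ifit3b, Ifit1bl1, Mx1, Oas1a, Usp18, Cmpk2 and Ddx58 were the others. Over single cells the list's median was 10888 CPM in library 1 and 10455 in library 2, with upper quartiles of 23668 and 18472, so the libraries overlapped and differed more in their highest cells.

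In Cxcl9-low C1q cells 8 of 37 genes of the list were lower and 1 higher (median -0.04), beside 170 lower and 212 higher of all 5336 genes measured there. In Mrc1 Folr2 Pf4 cells 1 of 35 was lower and 5 higher (0.27), beside 172 and 228 of 5758. In T cells 3 of 39 were lower and 1 higher (0.06), beside 368 and 401 of 12995. The difference between these cell sets was not tested. Without the chosen cells that held other lineages' UMIs 3 of 35 type I genes were called lower (median -0.19). After thinning to 5000 UMIs, with the cells chosen anew, 3 of 33 were (-0.18). The median was below 0 in each alternative run, from -0.50 to -0.18.

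**Figure D4:**
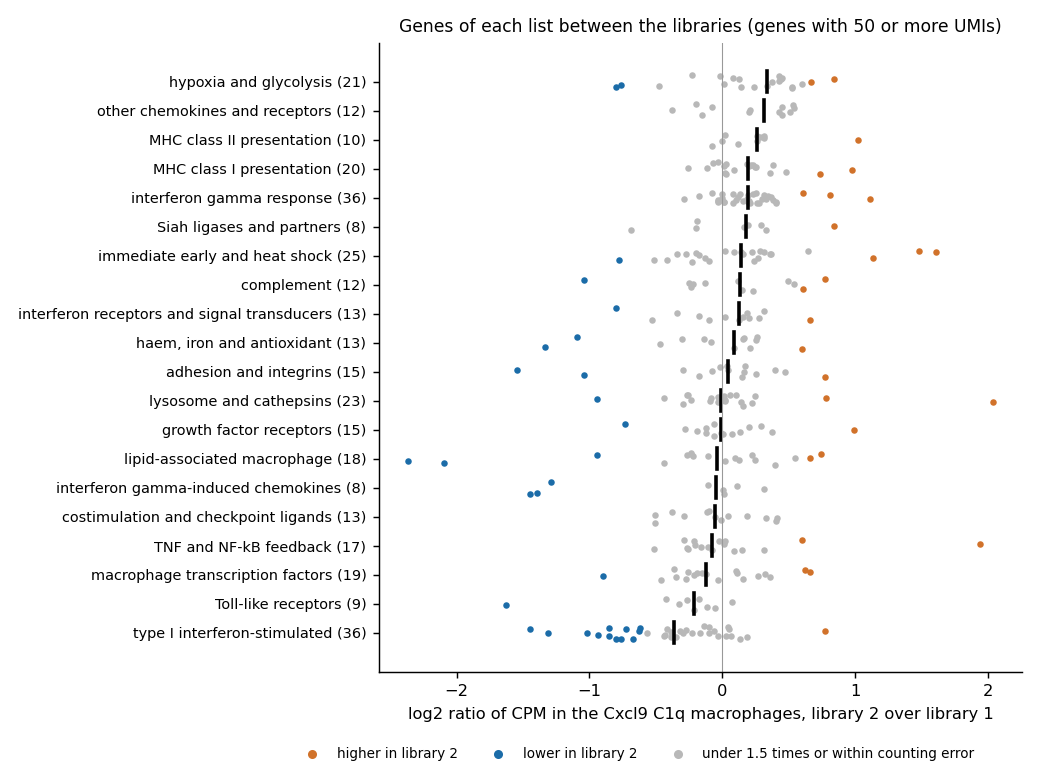
Log2 ratio of library 2 over library 1 in the chosen cells for the genes of 20 lists, 1 row per list with its number of measured genes, 1 point per gene (orange at least 1.5-fold higher, blue lower, grey neither) and a bar at the list median. The type I interferon-stimulated list has the lowest median of those drawn, -0.37, with 12 blue points and 1 orange.

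The interferon gamma response list lay near the share of all genes. Of 36 measured, 3 were higher in library 2 and 0 lower, where 3.96% and 3.77% of all genes were (median 0.19, from 0.12 to 0.32 over the alternatives): Cfb, Upp1 at 118 and 255 CPM (1.11, 0.77 to 1.46) and Acod1 at 105 and 184 CPM (0.81, 0.43 to 1.20). The receptor genes Ifngr1 (305 and 333 CPM) and Ifngr2 (222 and 207 CPM) were not called. Of 8 chemokines of the interferon gamma list, Ccl7, Ccl8 and Ccl12 were lower in library 2 and 0 were higher. Ccl8 held 66.7% of its library 1 UMIs in 1 cell and was no longer called without it. With 1 or more Cxcl9 UMIs as the limit the Ccl7 ratio was 0.75, and 1 of the 8 was called lower and 1 higher.

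Other functional groups showed isolated differences, where 3.96% of all genes were higher in library 2 and 3.77% lower. In the complement list Cfb and the integrin Itgam, a chain of complement receptor CR3 (193 and 330 CPM, 0.78), were higher in library 2, and Itgax, a chain of CR4 (155 and 74.9 CPM, -1.04), was lower. Among 21 hypoxia and glycolysis genes Hif1a (145 and 260 CPM, 0.84) and the lactate exporter Slc16a3 (0.67) were higher and Hk2 (-0.80) and Eno1 (-0.76) lower, with a median of 0.34. The Hif1a ratio was 0.19 in Cxcl9-low C1q cells, 0.33 in Mrc1 Folr2 Pf4 cells and 0.27 in T cells, while Eno1 was as low in those sets (-0.72, -0.94 and -1.10). For antigen presentation, 2 of 20 MHC class I genes (Tap2 and Nlrc5) and 1 of 10 class II genes (H2-DMb2) were higher and 0 lower.

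Several of the largest ratios between libraries came from 1 or 2 cells. S100a9 had 8 UMIs in library 1 and 156 in library 2, all 156 in 1 cell, and S100a8 had 6 and 91 UMIs with 97.8% of the library 2 count in 1 cell, both genes of neutrophils. Saa3 had 155 UMIs in library 1, 94.8% in 1 cell, and 0 in library 2, at least 34.1-fold higher in library 1 against a floor of 3 counts. Hspa1a (112 and 226 UMIs) held 93.4% of its library 2 count in 1 cell, and Ccr7 (25 and 49 UMIs) came from 2 cells in each library. Prf1, a pore-forming protein of cytotoxic lymphocytes, had 57 and 7 UMIs (log2 ratio -2.34) and -0.73 without the cells with other lineages' UMIs.

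Genes with near-identical copies and little-studied loci differed in the same direction in the other cell sets measured. Rpl35 had 477 and 106 UMIs (log2 ratio -1.56) and stood at -1.71, -1.60 and -1.76 in Cxcl9-low C1q, Mrc1 Folr2 Pf4 and T cells. G530011O06Rik (23 and 74 UMIs, 2.26), Rpl9-ps6 (1.76), Ftl1-ps1 (1.81), Gm42031 (-2.97) and Mir6236 (-1.84) had the same sign in all 3 of those sets. Reads of the pseudogenes and paralogs can be shared with their source genes, so their counts are uncertain.

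Tnip3 and Hax1 had ratios in the chosen cells that stood apart from those in the other sets. Tnip3, a brake on NF-kB signalling, had 25 and 64 UMIs (1.94) against -0.09, 0.19 and 0.29 in Cxcl9-low C1q, Mrc1 Folr2 Pf4 and T cells. Hax1, a mitochondrial survival protein, had 61 and 11 UMIs (-1.82) against 0.16, 0.40 and 0.12. Lyz1 had 150 and 408 UMIs, 145 and 599 CPM, a ratio of 2.04. It was 1.94 without the top cells and 0.27 after thinning, with the cells chosen anew. The matrix protease Mmp12 (61 and 9 UMIs, -2.09) and the lipase Lpl (58 and 7 UMIs, -2.36) were lower in library 2, Lpl with 62.1% of its library 1 UMIs in 1 cell. The Lpl ratio was 0.67 with 1 or more Cxcl9 UMIs as the limit, and 3.41 in Cxcl9-low C1q cells. Whether these ratios differ between cell sets was not tested.

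**Figure D5:**
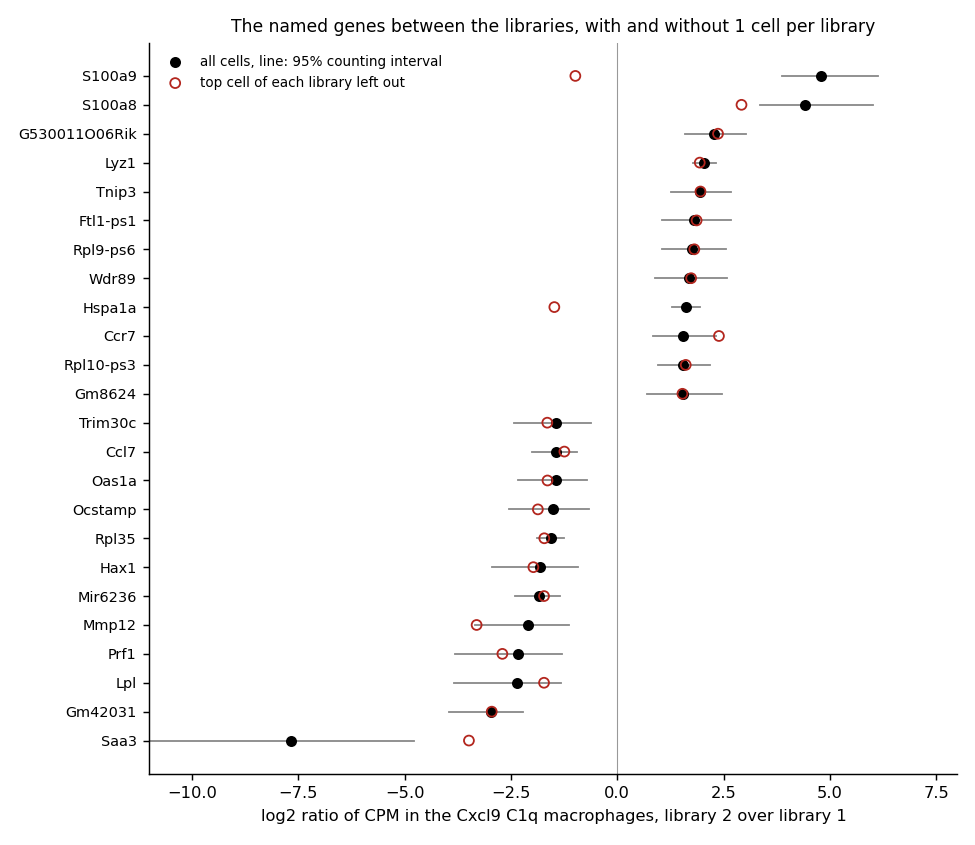
Log2 ratio of library 2 over library 1 for the 12 highest and 12 lowest named genes in the chosen cells, with a 95% counting interval as a line (that of Saa3 runs past the axis), and the same ratio without the cell holding the most UMIs in each library as a red ring. S100a9 and Hspa1a move from 4.80 and 1.61 to -0.99 and -1.48, while Lyz1 moves from 2.04 to 1.94.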

How the data were processed

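The authors deposited 1 matrix of UMI counts per gene and barcode for CD45+ cells of 1 WT and 1 Siah1a/2 KO lung, written by Cell Ranger 6.1.2 according to both its header and the submitters' processing notes, where the build is mm10. The gene annotation and any subsampling of reads are not given in the sources used here. The counts are raw, and barcode endings 1 and 2 were matched to no sample.

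From the deposited counts, barcodes with at least 500 genes and at most 10% mt- UMIs were kept, 110 repeated symbols were summed, and cells were chosen by the rule. No doublet caller was run. UMIs were summed per library and cell set (CPM of the summed total). For log2 ratios 0.5 UMI was added to each sum, with exact conditional binomial 95% intervals, for genes with at least 50 UMIs over both sums. Levels have exact Poisson and shares exact Clopper-Pearson intervals. A gene was called between libraries at 1.5-fold, and between cell sets at 2-fold in both libraries, with intervals that excluded 0. T cells held at least 3 Cd3 UMIs and fewer than 5 of C1q. The ratio step was run on simulated sums that varied by counting error alone, so that run says nothing of differences between cells.

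Named genes were the rule and Siah genes, the 20 most abundant, the 12 highest and 12 lowest ratios of each comparison among genes at 50 CPM or more, up to 4 per list by level and by ratio, and the 12 most like Cxcl9; further genes called were named after their values were seen. The members and lists were chosen with earlier results of these data known. Gene positions are from GENCODE M21 where an identifier and its version matched (54349 of 55401), promoters from RefSeq (GRCm38.p6). Alternatives changed the cell filter, the limits of the rule, depth, pseudocount, UMI minimum and scaling. The alternative of thinned depth applied the rule anew to the thinned counts, which chose 97 and 56 cells. Python 3.11.15, numpy 2.4.6, scipy 1.17.1, pandas 2.3.3 and matplotlib 3.10.9 were used.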

Additional observations from a re-analysis of the deposited data

Results flagged for a closer look

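S100a9, Gzma, Prf1 and Lyz1 stood on opposite sides of 0 in the 2 libraries when the chosen cells were set against another C1q cell set, with intervals that excluded 0 in both; the difference between libraries was not tested. S100a9, a neutrophil protein, had a log2 ratio over Cxcl9-low C1q cells of -2.46 in library 1 and 6.45 in library 2, where all 156 of its UMIs lay in 1 cell. Gzma, a granzyme of cytotoxic lymphocytes, had ratios over the Mrc1 Folr2 Pf4 C1q cells of 1.76 and -2.82, with 56.1% and 77.5% of its UMIs in 1 chosen cell. Prf1, made by the same lymphocytes, had 1.56 and -3.21. Beside both, the NK cell list summed to 593 and 467 CPM in the chosen cells and to 176 and 880 CPM in the Mrc1 Folr2 Pf4 cells, and its part in these ratios was not tested. The lysozyme gene Lyz1 had -1.61 and 1.82 over the same cells.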

How the results depend on the processing

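No paired analysis was possible because each genotype has 1 sample and the barcode endings carry no replicate number. The chosen cells' share of kept cells in library 1 was 1.39% with 1 or more Cxcl9 UMIs, 0.831% with 50 or more C1q UMIs, 0.818% with no Cd3 UMI and 1.48% after thinning to 5000 UMIs. In library 2 it was 0.622% with 5 or more Cxcl9 UMIs and 1.15% after thinning. Between libraries, genes lower in library 2 numbered 86 after thinning, and a minimum of 200 UMIs per gene left 35 higher and 40 lower, since fewer genes were measured. Genes lower than in Cxcl9-low C1q cells numbered 1 after thinning, 2 with no Cd3 UMI and 2 when centred on the median gene. Genes higher than in them numbered 9 without cells holding other lineages' UMIs, and genes lower than in Mrc1 Folr2 Pf4 cells numbered 24 after thinning. Ratios between libraries changed sign for Lpl (0.67) and Ccl7 (0.75) with 1 or more Cxcl9 UMIs, for S100a9 (-3.53) and S100a8 (-1.56) with 50 or more C1q UMIs, and for S100a9 (-2.01) and Prf1 (0.29) after thinning. They did so too for S100a9 (-0.99) and Hspa1a (-1.48) without the top cells, and for Hmox1 (1.42) without cells holding other lineages' UMIs. Fn1 over Cxcl9-low C1q cells in library 1 was 0.67 with no Cd3 UMI. Apart from these 10, where the cause was not tested, 543 recomputed ratios of single genes between libraries stayed within the counting interval and 60 left it, while 450 between cell sets, list medians included, moved by under 1.5-fold and 49 by more. Leaving out top cells and other lineages' cells was chosen after seeing the data. Depth limits all low genes: 50 UMIs bound what could be called.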
